A study of Homo sapiens with 6 samples.

Results

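The 10 genes described here encode sensors, caspases, pore-forming proteins and cytokines of lytic, inflammatory cell death. They are NLRP1, PYCARD, CASP1, CASP4, GSDMD, DFNA5 (now named GSDME), IL1A, IL1B, NINJ1 and MLKL, taken by name from the 35035 genes of the deposited table, and all 10 were found. Expression was measured by RNA sequencing in HK-2, a human cell line established by immortalising epithelium of the kidney's proximal tubule. One group of 3 libraries came from cells carrying empty-vector plasmids (genotype label WT) and the other group of 3 from cells carrying plasmids that overexpress circAASS, a circular RNA named after the gene AASS. Both groups had been held at 1% oxygen for 24 h and reoxygenated for 12 h per the treatment label, although the design text places the profiling at 24 h. Cells held at normal oxygen were not analysed here, so every value describes cells after hypoxia and reoxygenation. Nothing in the labels ties the repeats to separate cultures, so p-values measure only how far these libraries spread, and that spread may be technical. A lower value in bulk RNA can come from fewer cells of a kind or from less RNA per cell, which cannot be told apart.

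Inflammasomes are protein platforms in which a sensor such as NLRP1 recruits the adaptor ASC, the product of PYCARD, and thereby activates the protease caspase-1. Caspase-1 cuts the precursors of the cytokines IL-1β and IL-18 and also cuts gasdermin D, whose freed amino-terminal part forms pores in the plasma membrane, a death called pyroptosis. Gasdermin E is a related pore former, MLKL breaches the membrane in necroptosis, and NINJ1 carries out the final rupture. In the kidney tubule these routes are studied as ways in which cells die and inflame their surroundings after ischaemia.

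With the circAASS plasmid, the gasdermin genes GSDMD and DFNA5 and the sensor NLRP1 were lower. DFNA5 fell by 31.5%, NLRP1 by 29.4% and GSDMD by 25.5% in mean deposited RPKM (reads scaled to gene length and library size). The test used log2(RPKM + 0.1) after a further scaling of the libraries. RPKM was divided by factors of 1.017 to 1.043 with vector and 0.954 to 0.996 with circAASS. Falls are therefore smaller, and rises larger, than in deposited RPKM. On the tested scale the log2 fold changes of DFNA5, NLRP1 and GSDMD were -0.45, -0.39 and -0.34. MLKL and NINJ1, the most abundant of the 10, did not pass the test, nor did PYCARD and CASP4. CASP1, IL1A and IL1B each stayed below 0.3 RPKM in every library of both groups. Of the 10 genes 9 had enough reads to be tested, 3 were called lower, none was called higher and 6 were not called (limma over all genes, Benjamini-Hochberg adjusted p under 0.05). Called genes thus made up 33.3% of the tested genes of the set against 32.3% of all 19411 tested genes, and 15.9% of all tested genes were called in the lower direction. The median log2 fold change was -0.22 in the set and -0.01 over all tested genes.

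**Figure D1:**
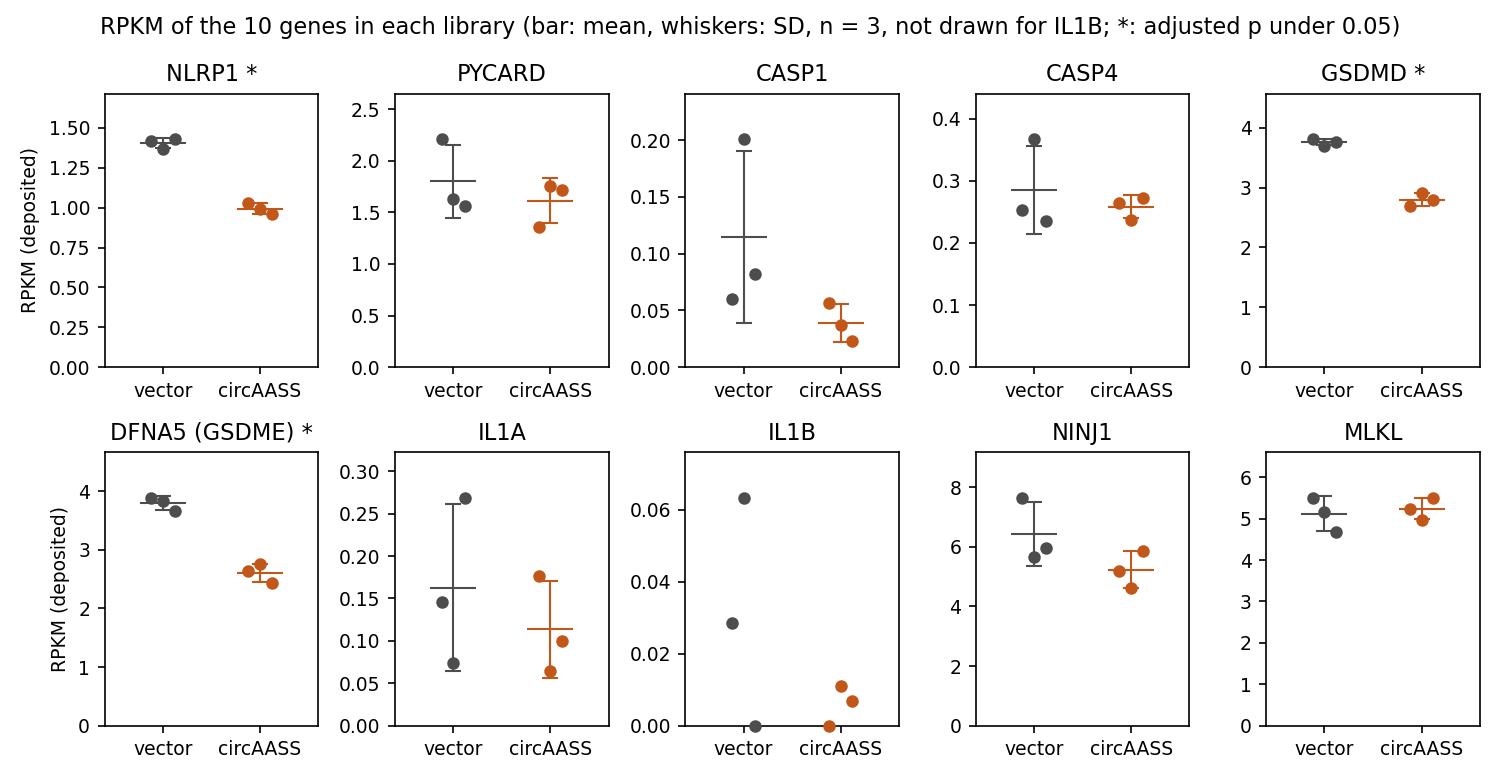
Deposited RPKM of each gene in the 3 vector and 3 circAASS libraries (points), with the mean and SD; each panel has its own vertical axis, which starts at 0. The libraries of the 2 groups separate without overlap for NLRP1, GSDMD, DFNA5 and, only narrowly, CASP1. CASP1 stays at or below 0.201 RPKM, and its vector library 1 and circAASS library 1 each held 10 reads.

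Library totals ran from 45148425 to 52470055 reads with empty vector and from 47384879 to 58179563 with the circAASS plasmid. AASS itself went from 1.23 ± 0.141 to 0.88 ± 0.0842 RPKM (SD, n = 3 each) and was not called (limma, adjusted p = 0.0723), but reads summed per gene do not separate circular from linear or plasmid RNA and so do not check the labels. Keratins KRT8, KRT18 and KRT19, VIM and the kidney factor PAX8 were well expressed, and 7 of 14 tubular markers reached a mean of 1 RPKM, with a sum of 412 to 425 RPKM with vector and 440 to 503 with circAASS. Members of that list went both ways: PAX8 rose from 25.0 to 42.3 RPKM, KRT18 from 79.3 to 107 and KRT8 from 127 to 149, whereas the cadherin CDH6 fell from 13.5 to 4.89 and GGT1 from 9.25 to 7.11 (limma, adjusted p of at most 0.00899). Defining markers of the mature proximal tubule were nearly silent in this line: LRP2, CUBN, SLC34A1, AQP1 and ANPEP had vector means of 0.00664, 0.0122, 0.0306, 0.0423 and 0.0358 RPKM. Leukocyte markers summed to 103 to 107 RPKM with vector and 79.1 to 101 with circAASS, almost wholly from the lysosomal gene CD68, while the pan-leukocyte gene PTPRC had means of 0.00661 and 0.00805. The macrophage marker CSF1R fell from 0.844 ± 0.166 to 0.459 ± 0.0724 RPKM (SD, n = 3 each; limma, adjusted p = 0.0248), a call lost when circAASS library 2 or vector library 1 or 2 was left out (at most 0.0697). Summed endothelial markers stayed below 0.1 RPKM in every library, and 6 fibroblast markers summed to 3.69 to 4.46 RPKM with vector and 4.17 to 4.49 with circAASS. The unpolyadenylated RNA RN7SK moved with the groups, at 44.7, 34.1 and 37.0 RPKM with vector and 55.6, 135 and 190 with circAASS (limma, adjusted p = 0.0178, not called without vector library 2 or 3 or circAASS library 2), and the mitochondrial share of reads was 8.86% to 9.03% against 9.09% to 10.1%. The part of these differences in the results below was not tested.

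Among the 10 genes, RNA levels per length were highest for those that encode membrane-rupturing proteins. This order is limited to the set: the signalling genes FADD and RIPK1 had vector means of 32.6 and 12.9 RPKM. NINJ1 ranked highest in the vector cells with a mean of 6.42 RPKM, followed by MLKL at 5.12, DFNA5 at 3.80, GSDMD at 3.76, PYCARD at 1.80 and NLRP1 at 1.41. The other genes lay far lower, with CASP4 at 0.286 RPKM, IL1A at 0.163, CASP1 at 0.115 and IL1B at 0.0306. The vector libraries of DFNA5 and GSDMD overlapped, as did those of CASP4, IL1A, CASP1 and IL1B with their neighbours in this order, so the order among these is not resolved; the remaining neighbours did not overlap. Among all tested genes GSDMD stood at the 56.9th percentile of mean level, whereas CASP1 stood at the 2.75th percentile.

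NLRP1 (chromosome 17, 5499427 to 5619424, minus strand, GRCh38) encodes a sensor that is set off by proteases and by double-stranded RNA. The sensor is held back by the dipeptidyl peptidase DPP9. NLRP1 was at 1.42, 1.37 and 1.43 RPKM in the vector libraries, from 823, 893 and 963 reads. With circAASS it was at 1.03, 0.993 and 0.961 RPKM (631, 740 and 583 reads). Every circAASS library lay below every vector library. The log2 fold change of RPKM + 0.1 was -0.39 (SE 0.10, 95% interval -0.62 to -0.16; limma, adjusted p = 0.0213). The call was near the threshold: of the 6 fits with a library left out, 4 lost it (without vector library 1, 2 or 3 or circAASS library 3), the adjusted p reaching 0.0643. With a pseudocount of 1 RPKM the log2 fold change was -0.23, still called.

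PYCARD, the gene of the adaptor ASC that joins sensors to caspase-1 (chromosome 16, 31201485 to 31203450, minus strand), was at 2.21, 1.63 and 1.56 RPKM with vector. With circAASS it was at 1.36, 1.76 and 1.72 RPKM, and the groups overlapped. Its log2 fold change of -0.07 (95% interval -0.44 to 0.30) was not called (limma, adjusted p = 0.763). The antisense gene PYCARD-AS1, at 1.6 and 1.42 RPKM, covers 59.7% of the exon bases of PYCARD, and the use of strand in counting is not given in the sources used here, so reads of the pair are uncertain.

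CASP1 encodes the protease that inflammasomes activate (chromosome 11, 105025443 to 105035250, minus strand). Its reads were few: 10, 38 and 16 with vector and 10, 8 and 4 with circAASS, with the mates of a pair mostly counted separately. These correspond to 0.0599, 0.201 and 0.0825 RPKM against 0.0564, 0.0372 and 0.0228. Vector library 2 was by far the highest, and the lowest vector library exceeded the highest circAASS library only narrowly. The log2 fold change of -0.55 (95% interval -1.15 to 0.05) was not called (limma, adjusted p = 0.142). Its size hung on the settings, from -0.09 with a pseudocount of 1 RPKM to -1.34 with voom on recovered reads, and was -0.27 without vector library 2; none of the alternatives that could test it gave a call.

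CASP4, which encodes the caspase that binds bacterial lipopolysaccharide in the cytosol and can cut gasdermin D without caspase-1 (chromosome 11, 104942866 to 104969436, minus strand), had more reads, 83 to 136 per library. It was at 0.253, 0.367 and 0.236 RPKM with vector and at 0.264, 0.237 and 0.273 with circAASS. The vector libraries spanned the circAASS libraries, and the log2 fold change of -0.04 (95% interval -0.46 to 0.39) was not called (limma, adjusted p = 0.897). In 4 of the 10 genes, NLRP1, CASP1, GSDMD and DFNA5, every circAASS library lay below every vector library. For CASP1 this rests on library size, since vector library 1 and circAASS library 1 each held 10 reads. Over all tested genes 47.4% had groups without overlap, 30.3% with circAASS the lower. These shares use deposited RPKM without the scaling of the test, after which 16.3% of genes were called higher and 15.9% lower.

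GSDMD (gasdermin D) is the pore former cut by caspase-1 and caspase-4. It was at 3.81, 3.70 and 3.77 RPKM in the vector libraries, from 881, 965 and 1012 reads. With circAASS it was at 2.69, 2.91 and 2.80 RPKM (659, 867 and 679 reads). The libraries within each group lay close together and the groups did not overlap. The means were 3.76 ± 0.0589 and 2.80 ± 0.114 RPKM (SD, n = 3 each), with a log2 fold change of -0.34 (SE 0.07, 95% interval -0.49 to -0.18; limma, adjusted p = 0.00873). The call held in all 14 alternatives tried, with adjusted p of at most 0.0322.

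DFNA5, listed under its older symbol, encodes gasdermin E, a pore former of the same family (GENCODE 29 name GSDME; chromosome 7, 24698351 to 24758113, minus strand). It was at 3.89, 3.84 and 3.67 RPKM with vector, from 1564, 1744 and 1712 reads, and at 2.63, 2.75 and 2.44 with circAASS, from 1121, 1422 and 1029 reads. All 3 circAASS libraries lay below all 3 vector libraries. The means were 3.80 ± 0.119 and 2.60 ± 0.154 RPKM (SD, n = 3 each), and the log2 fold change was -0.45 (SE 0.08, 95% interval -0.64 to -0.26; limma, adjusted p = 0.00595). It was called in all 14 alternatives tried, with adjusted p of at most 0.0254. The ratio of GSDMD to DFNA5 within a library was 0.962 to 1.03 with vector and 1.02 to 1.15 with circAASS. GSDMB, a further gasdermin, was at 3.01 ± 0.146 and 3.17 ± 0.131 RPKM (SD, n = 3 each) and was not called (limma, adjusted p = 0.186). Of the 6 genes of the gasdermin family, GSDMA, GSDMC and DFNB59 had too few reads to test.

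The start-site region of DFNA5 is shown because this gene had the largest called change of the set, and that of MLKL because it is an executioner gene of like abundance that was not called. Both stretches come from RefSeq (GRCh38.p14), run from 250 bases before to 50 bases after the annotated start, and are written 5′ to 3′ on the gene's own strand, the minus strand for both. They lie at chr7:24757415-24757714 and chr16:74700813-74701112. Capitals mark matches to a GC box (GGGCGG) or to the core of a hypoxia response element (ACGTG), searched on both strands.
DFNA5: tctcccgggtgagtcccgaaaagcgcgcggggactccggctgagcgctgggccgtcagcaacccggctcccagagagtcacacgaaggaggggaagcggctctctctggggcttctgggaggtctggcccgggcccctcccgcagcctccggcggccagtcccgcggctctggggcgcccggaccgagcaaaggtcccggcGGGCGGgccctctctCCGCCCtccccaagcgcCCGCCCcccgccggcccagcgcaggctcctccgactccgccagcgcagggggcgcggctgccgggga
MLKL: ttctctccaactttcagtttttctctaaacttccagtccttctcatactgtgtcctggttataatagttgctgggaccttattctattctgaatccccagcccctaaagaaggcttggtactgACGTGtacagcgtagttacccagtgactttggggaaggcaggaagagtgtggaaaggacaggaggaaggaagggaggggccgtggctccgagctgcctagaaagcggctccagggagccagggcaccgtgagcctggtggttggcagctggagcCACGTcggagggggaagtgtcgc
In the DFNA5 stretch 3 GC boxes were found, starting 49, 34 and 17 bases before the start site, and no hypoxia core. In the MLKL stretch 2 hypoxia cores were found, starting 127 bases before and 28 bases after the start, and no GC box. GC boxes occurred in 45% and hypoxia cores in 21.4% of the 35116 promoter stretches of this length, so both are common. Among the 7 genes of the set with a sequence, GC boxes were found in PYCARD, CASP4, DFNA5 and NINJ1. Hypoxia cores were found in CASP4, IL1A and MLKL. GSDMD, NLRP1 and CASP1 had no sequence, so DFNA5 was the only called gene among the 7. Motifs of called and uncalled genes therefore cannot be compared. G and C made up 77% of the DFNA5 stretch and 54.7% of the MLKL stretch. The NF-kB site, present in 11.3% of all stretches, was found in none of the 7 genes of the set with a sequence. These matches describe the letters and not binding.

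**Figure D2:**
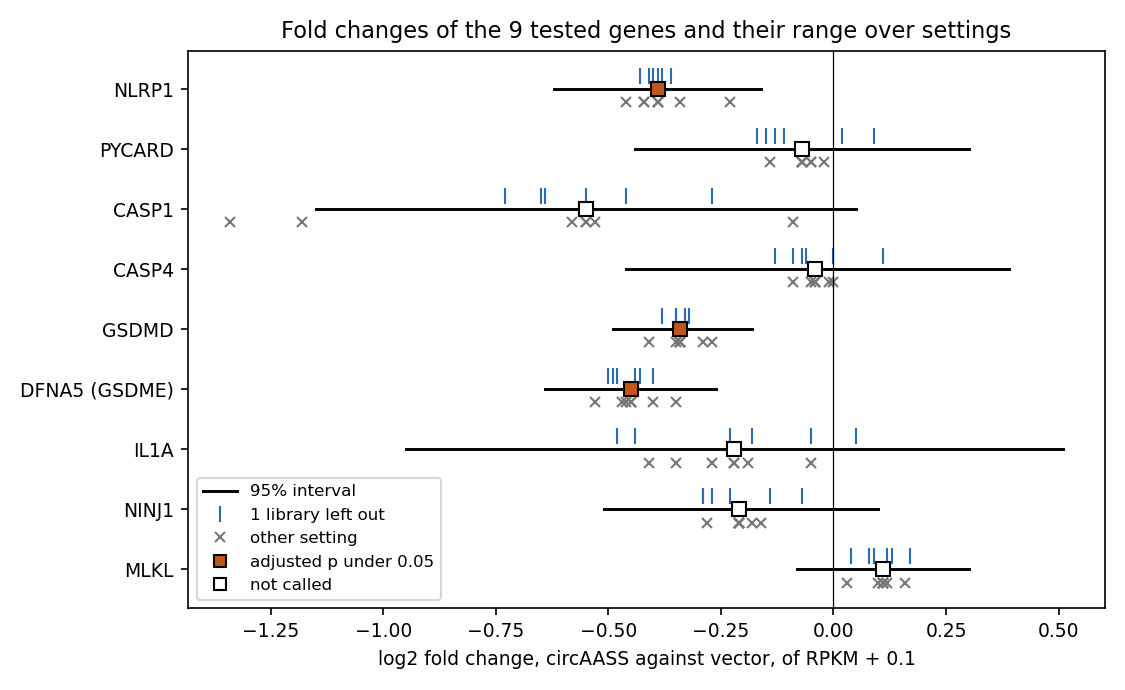
Log2 fold change (circAASS against vector, RPKM + 0.1) of the 9 tested genes as squares with 95% intervals, with the values without 1 library as ticks and under the other settings as crosses. The intervals of NLRP1, GSDMD and DFNA5 lie wholly below 0 and those of the other 6 genes include 0.

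The cytokine genes were at the limit of detection. IL1A, whose product acts as an alarm signal when cells burst (chromosome 2, 112773915 to 112784590, minus strand), gave 14, 8 and 30 reads with vector and 18, 8 and 10 with circAASS. Those are 0.146, 0.0738 and 0.269 RPKM against 0.177, 0.0647 and 0.0994. The groups overlapped and the log2 fold change of -0.22 had a wide 95% interval of -0.95 to 0.51 (limma, adjusted p = 0.622). IL1B, the cytokine released after cutting by caspase-1 (chromosome 2, 112829751 to 112836903, minus strand), gave 4, 10 and 0 reads with vector and 0, 2 and 1 with circAASS. It was below the read filter and was not tested in the fit reported. A count of 0 allows up to 3 reads, 0.0185 RPKM in vector library 3 and 0.0202 in circAASS library 1, for counting error only, so a difference was not detectable at this depth.

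IL18, the other cytokine precursor cut by caspase-1, was by contrast well expressed. It fell from 6.13 ± 0.351 to 2.25 ± 0.457 RPKM (SD, n = 3 each), a log2 fold change of -1.35 (SE 0.13; limma, adjusted p = 7.43e-04). Its level was 1.53 to 1.73 times that of GSDMD in the vector libraries and 0.691 to 0.952 times in the circAASS libraries. In its list of 11 ligands and soluble inhibitors of the IL-1 family only 3 genes could be tested. Of these 1 fell and 2 were not called (33.3% called, against 32.3% of all tested genes). IL33 and IL36G were below the read filter, as was IL1RN, the receptor antagonist.

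NINJ1, whose product tears the plasma membrane open at the end of lytic death (chromosome 9, 93121489 to 93134288, minus strand), was at 7.65, 5.66 and 5.95 RPKM with vector. It was at 5.19, 4.63 and 5.87 RPKM with circAASS. Vector library 1 stood above the rest, and circAASS library 3 lay within the vector range. The log2 fold change of -0.21 (95% interval -0.51 to 0.10) was not called (limma, adjusted p = 0.263), nor was it in any of the 14 alternatives.

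MLKL, the membrane-breaching protein of necroptosis (chromosome 16, 74671855 to 74700960, minus strand), had many reads, 1394 to 1649 per library. It was at 5.51, 5.17 and 4.67 RPKM with vector and at 5.24, 4.98 and 5.49 with circAASS, and the groups overlapped. The log2 fold change was 0.11, with a 95% interval of -0.08 to 0.30 (limma, adjusted p = 0.336). It was the only tested gene of the set with a positive value. RIPK3, the kinase that activates MLKL, had no entry under that name among the genes provided, so no value can be given.

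**Figure D3:**
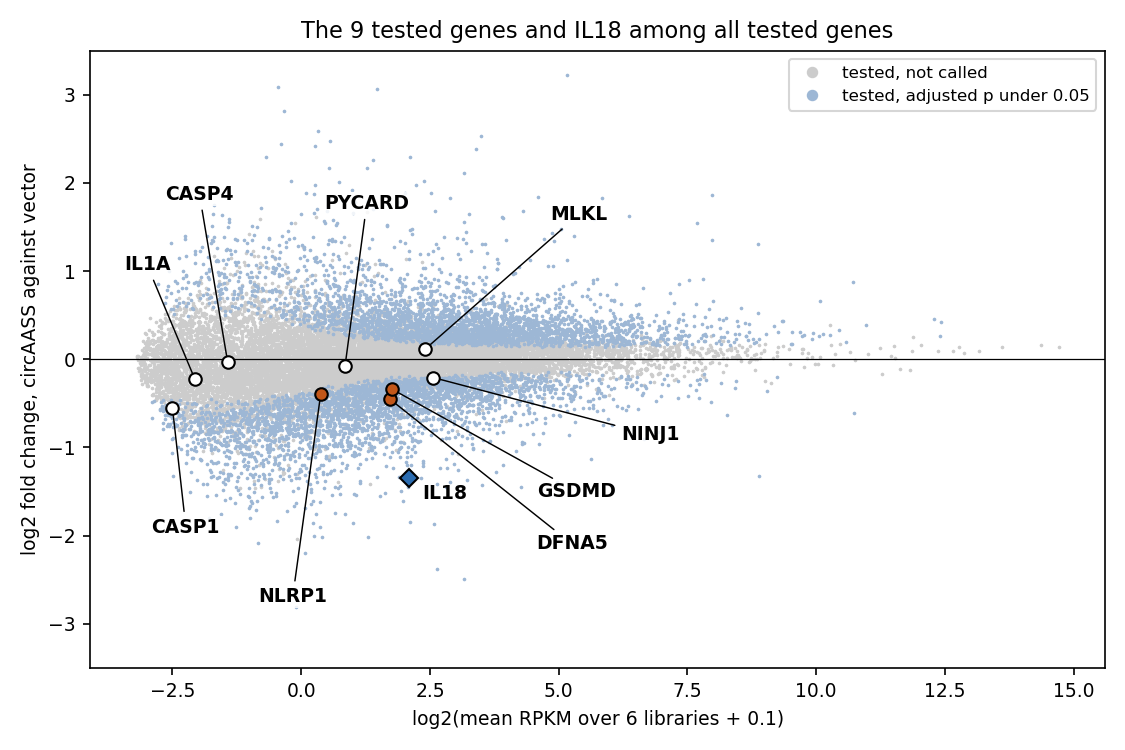
Log2 fold change (circAASS against vector) against mean level, log2(RPKM + 0.1), for all tested genes as dots, with the 9 tested genes of the set as circles (filled where adjusted p was under 0.05) and IL18 as a diamond. NLRP1, GSDMD and DFNA5 lie between -0.34 and -0.45, and IL18 at -1.35.

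The wider pathways were described with 10 lists of 109 genes in all. Without the 10 genes above, 66 list genes were tested: 11 rose, 16 fell and 39 were not called. Their median log2 fold change was 0.01. The share called was 40.9%, against 32.3% of all tested genes. That background share varied with expression level: it was 39.3% once the filter was raised to a mean of 1 RPKM. Any excess over 32.3%, here or in the lists below, was therefore not separated from expression level. The higher and lower calls each depend on the scaling: over all tested genes the split was 3171 higher and 3091 lower, against 2152 and 4020 with library size alone and 4062 and 2616 with upper-quartile scaling.

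Few inflammasome sensors were expressed. The list held 16 genes: sensors, their DPP inhibitors and NEK7, which is neither. Of these 8 were tested, 1 rose, 2 fell (NLRP1 and CARD8) and 5, NEK7 among them, were not called. That is 37.5% called, near the 32.3% of all tested genes. CARD8, a sensor built like NLRP1, fell from 1.18 ± 0.0291 to 0.83 ± 0.0421 RPKM (SD, n = 3 each; limma, adjusted p = 0.026), but among fits with a library left out only the one without circAASS library 3 kept the call (adjusted p at most 0.0775). DPP9, the inhibitor of both, rose from 6.13 ± 0.125 to 7.06 ± 0.235 RPKM (limma, adjusted p = 0.00626), with 18.4% of its exon bases shared with an antisense gene. IFI16, a DNA sensor, was at 16.5 and 17.4 RPKM, the highest level in this list, and was not called (limma, adjusted p = 0.152). NAIP, a sensor of bacterial proteins, was at 0.822 and 0.605 RPKM and was not called (limma, adjusted p = 0.107). NLRP3, the best known sensor, had means of 0 and 0.0112 RPKM and was below the read filter, as were AIM2, NLRC4 and MEFV.

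Among other proteases that cut gasdermins, 4 of 8 were tested and 2 fell (50% called, against 32.3% of all tested genes). CASP6 fell from 14.9 ± 0.876 to 10.3 ± 0.961 RPKM (SD, n = 3 each; log2 fold change -0.46; limma, adjusted p = 0.00592). CASP8, which can cut gasdermins and holds necroptosis in check, fell from 4.16 ± 0.138 to 3.17 ± 0.233 (limma, adjusted p = 0.0291), a call kept without circAASS library 1 or 2 but lost without any other single library (adjusted p at most 0.0958). The granzymes GZMA and GZMB and the neutrophil proteases ELANE and CTSG, proteases of leukocytes, were below the read filter.

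Among receptors of the IL-1 family 16.7% of tested genes were called and among their signalling proteins 30%, against 32.3% of all tested genes. Of 6 tested receptors 1 fell, SIGIRR, a receptor that dampens IL-1 signalling, from 0.696 ± 0.154 to 0.389 ± 0.00759 RPKM (SD, n = 3 each; limma, adjusted p = 0.0336), a call that held without vector library 1 and was lost without any other single library (adjusted p at most 0.103). IL1R1, the receptor for IL-1α and IL-1β, was at 0.876 and 0.648 RPKM and was not called (limma, adjusted p = 0.156). Of 10 signalling genes 2 rose, 1 fell and 7 were not called. The kinase IRAK1 rose from 29.6 to 35.7 RPKM and TAB2, an adaptor of the kinase TAK1, from 16.9 to 22.4, whereas the adaptor TAB1 fell from 2.63 to 1.95 (limma, adjusted p = 0.00426, 0.0011 and 0.0211). The TAB1 call was lost without vector library 2 and without circAASS library 3 (adjusted p at most 0.0788).

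Necroptosis genes moved in both directions around MLKL. Of 14 tested, 5 rose, 2 fell and 7 were not called, with a median of 0.14. Called genes thus made up 50% of the tested list, against 32.3% of all tested genes and 39.3% under the 1 RPKM filter. RIPK1, a kinase that starts either survival signalling or death, fell from 12.9 ± 0.166 to 10.2 ± 0.0151 RPKM (SD, n = 3 each; limma, adjusted p = 0.00649). The deubiquitinase CYLD, which acts on RIPK1, rose from 3.57 ± 0.186 to 5.43 ± 0.405 RPKM. The adaptor TICAM1, which connects some Toll-like receptors to RIPK kinases, rose from 3.34 to 4.48, and the ubiquitin ligase BIRC3, which restrains RIPK1, from 8.53 to 11.4. IPMK, an inositol phosphate kinase of the pathway whose products switch MLKL on, rose from 1.62 ± 0.217 to 2.68 ± 0.115 RPKM. These 4 rises had log2 fold changes of 0.67, 0.49, 0.49 and 0.77 (limma, adjusted p of at most 0.00274). Each was called in all 14 alternatives. BIRC2 also rose, with overlapping groups and a call lost in 4 of the 6 fits without a library. TRADD also fell, with a call lost in 3 of the 6.

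The list of membrane rupture and repair held more falls than rises. The ESCRT-III machinery pinches off damaged membrane and so can counter gasdermin and MLKL pores. Of 17 tested genes of the list 2 rose, 7 fell and 8, NINJ1 among them, were not called. The median log2 fold change was -0.07. Called genes made up 52.9% of the list, against 32.3% of all tested genes (16.3% higher and 15.9% lower). Under the 1 RPKM filter the share over all genes was 39.3%. The falls of CHMP1B, CHMP3 and VPS4A were less stable, with calls lost in 5, 3 and 1 of the 6 fits without a library. CHMP4A fell from 58.2 ± 1.17 to 37.5 ± 1.49 RPKM, CHMP4C from 11.3 ± 0.591 to 7.08 ± 0.466, CHMP2A from 67.9 ± 1.88 to 48.0 ± 2.70 and CHMP6 from 15.4 ± 0.858 to 10.4 ± 1.23 (SD, n = 3 each; limma, adjusted p of at most 0.0074). Exon bases shared with other genes made up 68.8% of CHMP4A, 21.5% of CHMP6 and 13.4% of CHMP4C, so their reads are uncertain to that extent. CHMP2B rose from 9.73 to 11.1 RPKM and CHMP7 from 12.9 to 15.3 (limma, adjusted p = 0.00878 and 0.0147), the latter not called without vector library 2 (0.0534).

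Genes that modify gasdermins or drive their transcription were tested as a list of 7, of which 1 rose, 1 fell and 5 were not called. Called genes made up 28.6% of this list, against 32.3% of all tested genes. LYPLA1, a thioesterase that removes palmitate from proteins, rose from 4.79 to 6.04 RPKM and the transcription factor SP1 fell from 10.1 to 7.93 (limma, adjusted p = 0.0063 and 0.00959). IRF2, an activator of GSDMD transcription, was at 12.2 ± 0.236 and 12.5 ± 0.391 RPKM and IRF1 at 4.50 and 4.69 (SD, n = 3 each; limma, adjusted p = 0.139 and 0.144); neither was called, and 22% of the exon bases of IRF1 are shared with other genes.

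**Figure D4:**
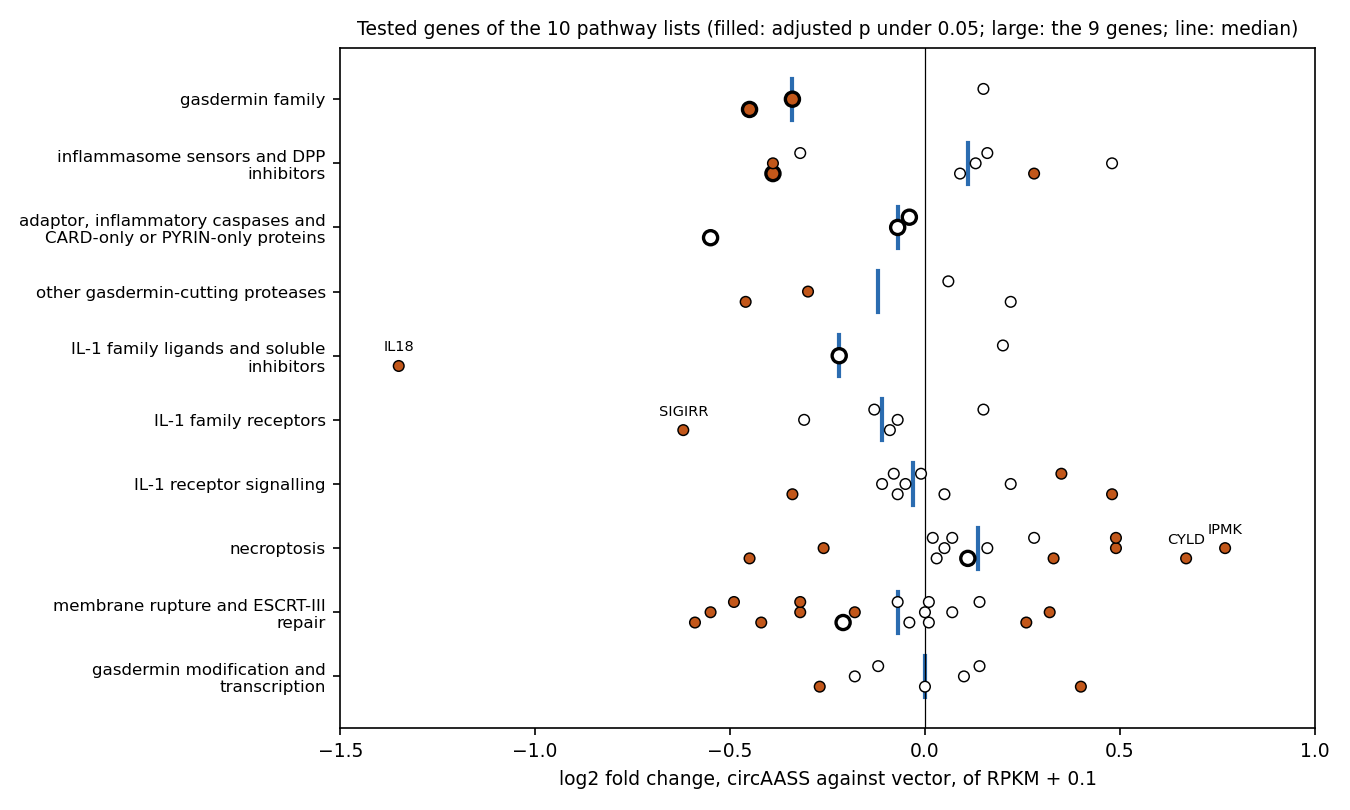
Log2 fold changes (circAASS against vector, RPKM + 0.1) of the tested genes of each pathway list, filled where adjusted p was under 0.05, with larger circles for the 9 tested genes of the set and a line at each list's median. Medians lie between -0.34 for the gasdermin family, with 3 genes tested, and 0.14 for necroptosis, with 14.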

How the data were processed

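RNA of 6 HK-2 samples was sequenced from stranded mRNA libraries with paired reads, per the labels' protocols. The authors' deposited values were RPKM per gene; the submitters' processing notes name Trimmomatic 0.36, featureCounts, Subread 1.5.1, edgeR 3.12.1 and GRCh38, the aligner, annotation and strand setting being not given in the sources used here. Columns were matched to samples by group and repeat number in the titles. Whole reads were recovered from the RPKM with exon lengths of GENCODE 29: values were whole in all 6 libraries, within 0.02 reads, for 22385 of 24697 genes (90.6%). For 12608 genes, DFNA5 among them, the smallest whole length giving whole reads was used, and 14 genes took the length of a newer symbol; recovered reads made up 99.72% to 99.74% of the totals. Of read numbers between 1 and 20, 69.5% were even, as when both mates are counted, so counting error is larger than the reads imply. The 28 names turned into dates were left out.

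The design planned for RPKM was used. RPKM was scaled with trimmed-mean factors (0.954 to 1.043) from the recovered reads. Then log2(RPKM + 0.1) was tested with limma 3.58.1 (R 4.3.3, intensity trend, robust prior, group as the sole term). This scale understates changes of low genes. The fit was also run on simulated data with far fewer changed genes than were called here, so that run does not check its error rates for these data. A gene was tested if 3 or more libraries held the equivalent of 10 reads in a library of median size and all libraries together 15. P-values are two-sided, adjusted over all tested genes, and SD is over deposited RPKM. Libraries of a group differed beyond sampling noise. Chi-square per degree of freedom was 5.8 to 7.8 between vector libraries and 13.5 to 22 between circAASS libraries, whereas the fit used a common variance per gene. The alternatives were other pseudocounts, scalings, filters, voom on the recovered reads, the repeat number as a block and leaving out each library. Named were the 10 genes, AASS and, by list, every further called gene where there were 5 or fewer and otherwise the 4 with the smallest p, plus IL18, RIPK1, RIPK3, NLRP3, CASP8, IL1R1 and IL1RN, and 1 gene not reported here; other genes were chosen after their values were seen. The genes and lists were chosen with earlier results of these data known. Promoter stretches are RefSeq's, matched by symbol for 7 of the 10 genes.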

Additional observations from a re-analysis of the deposited data

How the results depend on the processing

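Over 14 alternatives, the set of 10 genes kept 3 calls except with the replicate block and in 4 of the 6 fits without a library, where it had 2, NLRP1 being lost. GSDMD and DFNA5 were called in all 14. CASP1, CASP4 and IL1A had no value under the filter of a mean of 1 RPKM. Small values of genes not called changed sign: PYCARD to 0.09 without vector library 1 and 0.02 without circAASS library 1 (range without a library -0.17 to 0.09), CASP4 to 0.00 with upper-quartile scaling and 0.11 without vector library 2 (range -0.13 to 0.11), and IL1A to 0.05 without vector library 3 (range -0.48 to 0.05); the cause was not tested. Leaving out a library gave 1989 to 2948 genes called lower over all tested genes (3091 with all libraries), the fewest without vector library 2. The repeat numbers do not pair the samples by any label, and deviations of same-numbered libraries correlated at -0.01, -0.02 and 0.02, and not every library correlated best with its own number; with the replicate block 5422 genes were called over all genes (6262 without it) and 26 in the lists (30 without it), and NLRP1 had an adjusted p = 0.0542 (limma). Without the read filter IL1B had a log2 fold change of -0.27 (limma, adjusted p = 0.506). Depth limits CASP1, IL1A and IL1B, with at most 38 reads in any library.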

Other observations

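Lists of genes for potassium efflux, ATP release and TXNIP, for guanylate-binding proteins and for released proteins were chosen after the data had been seen. In these lists 3 of 5, 1 of 3 and 1 of 4 tested genes were called (60%, 33.3% and 25%), against 32.3% of all tested genes. TXNIP, a thioredoxin-binding protein that is known to associate with NLRP3, fell from 10.0 ± 1.00 to 3.96 ± 0.214 RPKM (SD, n = 3 each; log2 fold change -1.24; limma, adjusted p = 1.62e-04). The ATP-gated channel gene P2RX4 fell from 2.83 ± 0.113 to 1.90 ± 0.118 RPKM (limma, adjusted p = 0.00525), while P2RX7, the channel best known for setting off NLRP3, was below the read filter. PANX1, a channel that releases ATP, went from 5.89 to 6.74 RPKM with overlapping groups (limma, adjusted p = 0.0306), a call kept without circAASS library 1 and lost without any other single library (up to 0.109). LRRC8A and KCNK6 were not called. Of 5 guanylate-binding proteins, which expose bacterial lipopolysaccharide to caspase-4, 3 were tested and GBP1 fell from 9.76 ± 0.225 to 7.24 ± 0.697 RPKM (limma, adjusted p = 0.0182; 0.0602 without vector library 2). Of the 4 genes listed as released proteins, SAP130 rose from 5.35 to 5.87 RPKM (limma, adjusted p = 0.0281). Its call was kept without vector library 2 and lost without any other single library (limma, adjusted p up to 0.0876). This SAP130 gene (chromosome 2, 127941217 to 128028120) encodes a Sin3A-associated protein, not the released splicing protein of the same name. The 25% called in this list therefore rests on a gene outside its theme. HMGB1, at 109 and 112 RPKM, was not called.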
